A study of Mus musculus with 57 samples.

Results

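Broad H3K4me3 domains were taken from mouse epiblast stem cells (EpiSCs) that lack Wnt3 (Wnt3KO) and had not yet received a Wnt signal (0 h). A domain was a region of the 0 h H3K4me3 list of at least 3000 bp that overlapped no region of either H3K27me3 list at 0 h and no region of the 2 input lists. Of 16287 regions in that list, 285 (1.75%) were at least 3000 bp long. Of these, 48 overlapped H3K27me3, 2 overlapped an input region and 1 overlapped both, which left 234 domains (1.44% of the list). The domains were thus chosen by their measured length at 0 h and by the lack of H3K27me3 and input regions, and neither is a finding. The comparison set, called narrow below, was the 9126 regions of 300 to 1500 bp in the same list that also overlapped no H3K27me3 or input region.

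ChIP-seq, 4C-seq and ATAC-seq were run on EpiSCs, which are derived from the epiblast of mouse embryos, and on early embryos; 32 of the 57 samples came with a list of enriched regions, and the 4C-seq samples were not analysed here. Wnt3KO EpiSCs were profiled for H3K4me3 and H3K27ac at 0 h and after 6, 12 and 72 h of CHIR99021 (3 µM, an inhibitor of GSK3 that turns on Wnt/β-catenin signalling), with 1 library at each time. Wild-type EpiSCs were profiled for H3K27ac after 24 h of CHIR99021 (2 libraries) and at 0 h (1 library), and for accessible chromatin by ATAC-seq after 48 h of CHIR99021 and at 0 h (1 library each). The ATAC-seq of embryos was wild-type and covered E6.0 (2 libraries), E7.2 (2 libraries) and the posterior part of E7.5 embryos (1 library), while H3K27me3 and the Polycomb protein Ring1b were profiled in Wnt3KO EpiSCs at 0 h (2 libraries each), after 5 h of Wnt3a at 125 ng/mL and after CHIR99021. The EpiSC lines came from E6.0 explants and were grown with FGF, Activin A and the Wnt secretion inhibitor IWP2, which was withdrawn when CHIR99021 or Wnt3a was added. The labels give no Wnt stimulation for the Wnt3KO H3K4me3 and H3K27ac libraries at 0 h and name IWP2 for the other 0 h libraries of EpiSCs. No ATAC-seq list of Wnt3KO cells was used here, so the ATAC-seq values describe the places of the domains in wild-type cells.

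H3K4me3 is laid down on the nucleosomes around active promoters, mostly over CpG islands, and at some genes it runs on over several kilobases. Such broad domains are known for marking genes that define a cell's identity and for highly and steadily transcribed genes, and H3K27ac marks active promoters and enhancers. H3K27me3, the product of the Polycomb repressive complex, can lie over the same promoters as H3K4me3 in pluripotent cells, a state called bivalent, which the choice of domains excluded.

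The lists give positions in the mouse mm9 build and no gene names. A set of 18 genes in 3 classes was therefore placed in mm9 from knowledge of that build, and the placed gene start lay inside an H3K4me3 region of the 0 h list for 16 of the 18 genes and at most 35 bp from one for the other two. A domain lay over or within 2 kb of 6 of these genes. They were Sall4, Mycn and Otx2 (3 of 9 genes of pluripotency and the epiblast), Lef1 (1 of 6 Wnt targets and mesoderm genes), and Gapdh and Myc (2 of 3 housekeeping and growth genes). At Lef1, Mycn and Gapdh the domain was the only 0 h region there and held the placed start. Sall4, Otx2 and Myc had several 0 h regions, and which of them held the start was not recorded. All 5 markers of the epiblast state checked (Pou5f1, Sox2, Nanog, Otx2 and Fgf5) had H3K4me3 and no H3K27me3 at 0 h. H3K27me3 lay at 4 of the 6 Wnt target and mesoderm genes at 0 h and at none of the other 12, against 8.29% and 12.6% of all 0 h regions in the 2 H3K27me3 libraries, so that a count of 0 among 12 is near the background. For 4 of the 6 genes the 250 bases before the gene start follow. Whether these bases lie inside the domains was not checked. They are RefSeq sequences of GRCm38.p6, a later build than that of the lists. Their places are chr12:12941837-12942086 (minus strand) for Mycn, chr14:48667645-48667894 (minus) for Otx2, chr3:131110047-131110296 (plus) for Lef1 and chr6:125165774-125166023 (minus) for Gapdh. Each is written 5′ to 3′ and capitals mark every CG dinucleotide.
Mycn: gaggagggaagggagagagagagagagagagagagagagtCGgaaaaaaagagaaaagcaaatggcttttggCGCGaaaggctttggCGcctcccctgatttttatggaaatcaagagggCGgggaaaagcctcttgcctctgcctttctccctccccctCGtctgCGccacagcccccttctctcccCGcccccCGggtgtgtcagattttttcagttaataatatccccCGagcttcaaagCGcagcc
Otx2: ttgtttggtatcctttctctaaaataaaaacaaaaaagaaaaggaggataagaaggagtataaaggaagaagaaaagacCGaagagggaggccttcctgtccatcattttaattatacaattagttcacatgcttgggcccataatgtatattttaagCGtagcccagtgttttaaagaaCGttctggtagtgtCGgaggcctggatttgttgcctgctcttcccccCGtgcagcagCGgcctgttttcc
Lef1: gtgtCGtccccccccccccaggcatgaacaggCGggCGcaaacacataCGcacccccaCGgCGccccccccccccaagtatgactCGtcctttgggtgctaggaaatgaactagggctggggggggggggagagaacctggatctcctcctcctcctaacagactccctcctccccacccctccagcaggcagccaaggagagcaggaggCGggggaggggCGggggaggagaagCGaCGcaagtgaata
Gapdh: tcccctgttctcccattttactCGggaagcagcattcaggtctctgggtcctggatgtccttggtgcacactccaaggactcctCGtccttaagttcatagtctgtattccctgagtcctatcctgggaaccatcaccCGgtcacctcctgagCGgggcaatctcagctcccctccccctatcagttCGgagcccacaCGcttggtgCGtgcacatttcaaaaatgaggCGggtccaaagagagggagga
These promoters hold 11, 6, 11 and 8 CG dinucleotides in the order shown. The median of 32851 RefSeq promoter windows of the same length is 6, and 92.1% hold at least one. At least 11 were found in 35.6% of the windows, at least 8 in 43.0% and at least 6 in 50.4%, so none of the 4 stands far from the middle of all promoters in this count. Sall4 and Myc are named only.

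The domains were from 3010 to 7049 bp long, with a median of 3375.5 bp and quartiles of 3160.5 and 3797 bp. Together they covered 837211 bp. Most were only slightly longer than the limit, since 38 of the 234 reached 4000 bp. Narrow regions had a median length of 962 bp. Just inside the limit lay chr10:43197687-43200696 (3010 bp), the Myc domain (3011 bp) and chr7:134887985-134890999 (3015 bp), and just outside it lay 3 regions of 2998 bp at chr15:38229092-38232089, chr7:19944278-19947275 and chrX:78315559-78318556. A further 420 regions without H3K27me3 or input regions had lengths between 2500 and 3000 bp, so the limit cuts through a continuous range of lengths.

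Breadth was not the same as height. The fold enrichment at the summit, the authors' own value for each region, had a median of 27.9 in the domains (range 12.8 to 47.1) and of 17.4 in narrow regions. The median domain stood at percentile 63.1 of the list by fold enrichment and 6 of the 234 domains were among the highest 10%. For this reason a further set of 1590 narrow regions was formed whose fold enrichment lay between the quartiles of the domains (23.1 to 32.6, median 27.3), and it is used below as narrow regions of matched fold enrichment. All 234 domains were kept in these comparisons, so their fold enrichment ranged wider than that of the matched set. Domains lay on 20 chromosomes, with 3 to 18 on each. Another H3K4me3 region lay within 1000 bp of 50 domains (21.4%), against 21.5% of all regions of the list, and the median distance to the next region was 40189.5 bp.

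The 5 longest domains outside chromosome 18 were chr17:71197171-71203285 (6115 bp), chr12:109238923-109244587 (5665 bp), chr19:44368442-44373971 (5530 bp), chr8:8656640-8662100 (5461 bp) and chr4:54957607-54962950 (5344 bp). They differed widely in the other marks. At 0 h in Wnt3KO cells H3K27ac covered 53.6% of the domain on chromosome 17, 0% of that on chromosome 12, 11.7% of that on chromosome 19, 48.0% of that on chromosome 8 and 34.3% of that on chromosome 4. Accessible regions in wild-type EpiSCs at 0 h covered 69.5%, 55.4%, 15.2%, 73.2% and 70.1% of them in the same order. The domain on chromosome 19 kept 97.1%, 98.7% and 99.5% of its H3K4me3 at 6, 12 and 72 h. H3K27ac covered 0%, 29.4% and 13.4% of that domain at 6, 12 and 72 h in Wnt3KO cells, and 68.7% and 63.7% at 24 h, against 19.9% at 0 h, in wild-type cells.

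H3K4me3 persisted at all domains after Wnt signalling was turned on. All 234 domains held H3K4me3 at 6, 12 and 72 h, against 87.7%, 89.3% and 95.2% of all 0 h regions. Of their bases, H3K4me3 covered 85.9%, 86.4% and 94.8% at 6, 12 and 72 h, against 73.3%, 74.2% and 90.2% of the bases of narrow regions. At least 50% of the length was covered in 231, 232 and 229 domains at 6, 12 and 72 h, against 82.4%, 84.7% and 93.8% of all 0 h regions; the 95% Wilson interval at 72 h was 95.1% to 99.1% and covers counting error only. Narrow regions of matched fold enrichment lay close to the domains, with 83.4%, 83.5% and 95.05% of bases covered at the 3 times, and at 72 h at least 50% was covered in 1586 of 1590 of them. A domain is covered in full at 0 h because of how it was chosen, and each time has 1 library, so none of these changes was tested.

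**Figure D1:**
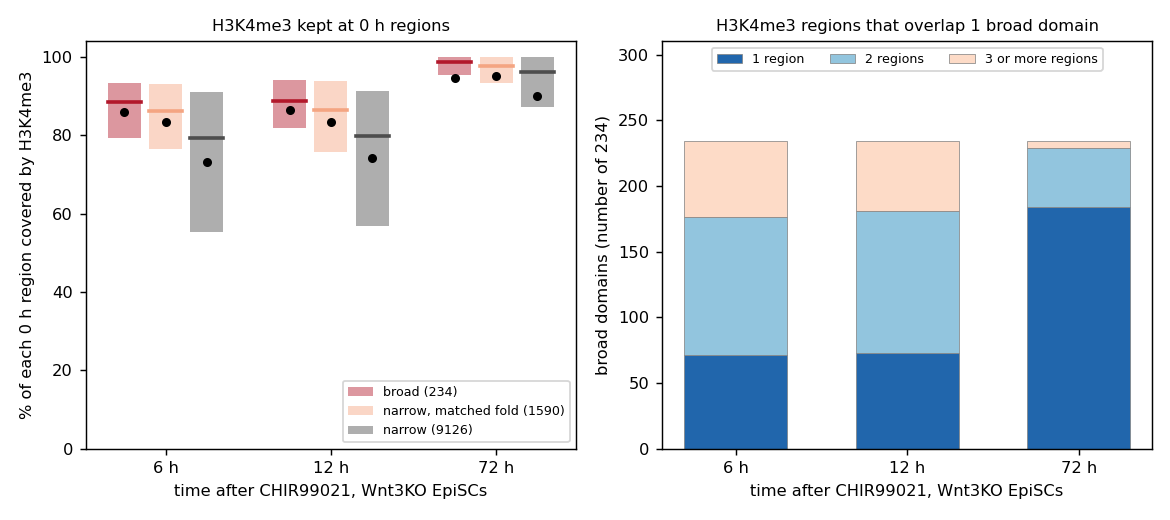
Left, percent of each 0 h region covered by H3K4me3 at 6, 12 and 72 h for broad domains, narrow regions of matched fold enrichment and all narrow regions; boxes span the quartiles, lines mark medians and black points the percent of all bases covered. Right, number of separate H3K4me3 regions over each of the 234 domains: 71 domains were in a single region at 6 h and 184 at 72 h.

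The domains were broken up at 6 and 12 h and mostly whole at 72 h. At 6 h 71 domains lay under a single H3K4me3 region, 105 under 2 and 58 under 3 or more, and at 12 h the counts were 73, 108 and 53. At 72 h they were 184, 45 and 5. Over all 0 h regions a single piece was found for 71.9%, 73.8% and 91.8% at the 3 times. The shares were 92.1%, 93.5% and 99.2% in narrow regions of matched fold enrichment. In regions between 1500 and 3000 bp with the same exclusions they were 66.1%, 66.6% and 93.5%. A longer region has more room for breaks, so these shares depend on length. The breaks left little of the domain uncovered, since the median domain kept 88.5%, 88.7% and 98.7% of its length at 6, 12 and 72 h. With the way from edge to centre cut into 5 equal steps, the outermost step lost most. At 6 h 72.8% of its bases were covered, against 88.5% to 89.9% in the 4 inner steps, and at 72 h 86.6% of the outermost step and 98.2% of the innermost were covered.

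Length followed the same course. The median of the longest H3K4me3 region over a domain was 3375.5, 2538.5, 2551 and 3419.5 bp at 0, 6, 12 and 72 h. A region of at least 3000 bp remained over 70, 74 and 177 domains at 6, 12 and 72 h, against 0.853%, 0.927% and 3.15% of all 0 h regions, and this count is bound up with the length that chose the domains. The region at 72 h was longer than at 0 h for 126 of the 234 domains, against 57.8% of all 0 h regions, and at 6 and 12 h for 28 and 26 domains, against 20.7% and 22.2%. In the whole lists, 285, 116, 134 and 429 regions reached 3000 bp at 0, 6, 12 and 72 h. Of the 429 at 72 h, 211 (49.2%) overlapped a region of at least 3000 bp at 0 h, which is 74.0% of the 285, and 1 overlapped no 0 h region at all. The splitting and shortening moved with the processing folder: the path in the region names puts the 0 h and 72 h lists in one folder and the 6 h and 12 h lists in another, and the median length over the whole lists was 1237, 930, 936 and 1230 bp at 0, 6, 12 and 72 h. Time and folder cannot be told apart here. Within a folder, the 72 h values can be set against 0 h and the 12 h values against 6 h.

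**Figure D2:**
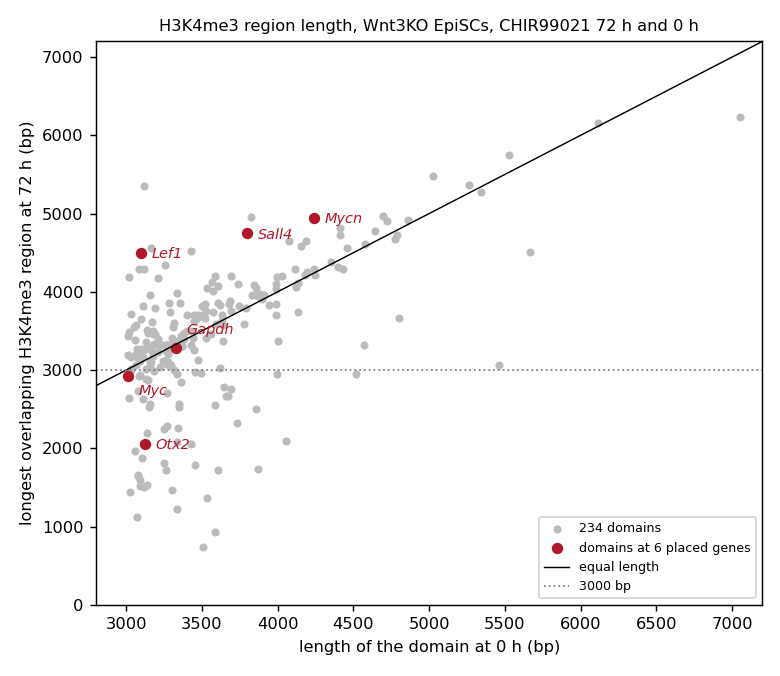
Length of each of the 234 domains at 0 h (horizontal axis, bp) and of the longest H3K4me3 region over it at 72 h of CHIR99021 (vertical axis, bp); red points are the domains at the 6 placed genes, the solid line marks equal length and the dotted line 3000 bp. Lef1, Sall4 and Mycn lie above the line of equal length and Otx2 lies below 3000 bp.

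A small number of domains lost much of their H3K4me3. No domain fell under 25% coverage at 72 h, the level set for naming lost domains, and the 5 lowest were chosen after their values were seen. They were chr8:12395552-12399061 with 28.3% covered at 72 h, chr8:96334393-96337462 with 35.9%, chr12:30218447-30221981 with 38.6%, chr8:24520939-24524238 with 44.3% and chr5:117040121-117043209 with 49.0%. H3K27ac was listed over none of the 5 at 72 h, and at 0 h it covered 24.4%, 14.1%, 8.83%, 0% and 27.9% of them. The domain at chr8:96334393-96337462 and that on chromosome 12 were already low at 6 h, with 39.2% and 41.0% covered, whereas the one on chromosome 5 still had 93.2% at 6 h and 92.6% at 12 h.

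The placed genes differed in the same respects. Lef1, which encodes a DNA-binding partner of β-catenin and is itself a Wnt target, lay in a domain at chr3:130813073-130816167 (3095 bp at 0 h). The H3K4me3 region over it measured 3290 bp at 6 h, 3379 bp at 12 h and 4496 bp at 72 h. H3K27ac covered 17.8%, 0%, 41.9% and 62.4% of the domain at 0, 6, 12 and 72 h in Wnt3KO cells. In wild-type cells H3K27ac covered 97.7% and 99.0% of it at 24 h, against 44.6% at 0 h. Both H3K4me3 length and H3K27ac coverage of Lef1 were thus highest at the last time in Wnt3KO cells, and both wild-type 24 h libraries lay above 0 h.

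Otx2, a homeodomain factor of the epiblast and the anterior embryo, went the other way. Its domain, chr14:49284171-49287292 (3122 bp), had a longest H3K4me3 region of 3328 bp at 6 h, 3258 bp at 12 h and 2055 bp at 72 h, when 75.8% of the domain was covered in 2 pieces. H3K27ac covered 23.3%, 31.6%, 10.9% and 0% of it at 0, 6, 12 and 72 h in Wnt3KO cells. In wild-type cells it covered 0% in both 24 h libraries, against 30.2% at 0 h. Accessible regions covered 25.8% of the Otx2 domain at 48 h, against 49.6% at 0 h, in wild-type EpiSCs, with the lists of these times from different folders. In embryos accessible regions covered 9.10% and 13.1% of the Otx2 domain in the E6.0 libraries, 19.6% and 30.1% in the E7.2 libraries and 23.5% in that of E7.5. All 3 marks in EpiSCs were lower at the Otx2 domain at the last time with CHIR99021 than at 0 h, while the embryo values lay below that of EpiSCs at 0 h.

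Sall4, a zinc-finger factor of pluripotent cells, lay at chr2:168589070-168592868 (3799 bp). Its longest H3K4me3 region was 4677 bp at 6 h, 4987 bp at 12 h and 4748 bp at 72 h. H3K27ac covered 42.9%, 21.9%, 38.5% and 26.6% of the domain at 0, 6, 12 and 72 h in Wnt3KO cells, and 94.3% and 91.9% at 24 h, against 89.0% at 0 h, in wild-type cells. The H3K4me3 region over Sall4 was thus longer than at 0 h at all 3 times, including the times at which most domains were broken up. Mycn, a growth-promoting factor of the MYC family, lay at chr12:12945636-12949872 (4237 bp), and its region measured 4284, 3385 and 4942 bp at 6, 12 and 72 h. H3K27ac was listed at Mycn in Wnt3KO cells only at 72 h, when it covered 19.4% of the domain. In wild-type cells it covered 95.7% and 83.5% of the Mycn domain at 24 h, against 22.4% at 0 h.

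The domains of Gapdh, a glycolytic enzyme, and Myc, a growth-promoting factor, were close to their 0 h length at 72 h. Gapdh (chr6:125113686-125117011, 3326 bp) had an H3K4me3 region of 2611 bp at 6 h, 2584 bp at 12 h and 3276 bp at 72 h. H3K27ac covered 45.8%, 18.2%, 42.4% and 37.4% of it at 0, 6, 12 and 72 h in Wnt3KO cells, and 99.9% and 98.0% at 24 h, against 78.5% at 0 h, in wild-type cells. Myc (chr15:61816974-61819984, 3011 bp) had 2929, 2852 and 2929 bp of H3K4me3 at 6, 12 and 72 h. H3K27ac covered 33.4%, 27.3%, 37.7% and 39.0% of the Myc domain at 0, 6, 12 and 72 h in Wnt3KO cells. In wild-type cells the 24 h libraries gave 79.0% and 48.7% for Myc, on either side of 60.5% at 0 h, so that the direction depended on the library.

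Of the placed genes outside the domains, Pou5f1 and Axin2 had the longest H3K4me3 regions at 0 h. Pou5f1, which encodes the pluripotency factor OCT4, missed the limit with 2969 bp at 0 h. Its H3K4me3 region measured 2989 bp at 6 h and 2375 bp at 12 h, and none was listed at 72 h. Axin2, a feedback inhibitor of Wnt signalling that is also a Wnt target, had 2696 bp at 0 h and 4650, 3622 and 4712 bp at 6, 12 and 72 h. Genes of either class went both ways between 0 and 72 h. Sox2 (2216 and 3123 bp), Sp5 (930 and 4216 bp), Eomes (1632 and 1675 bp) and Actb (2094 and 2418 bp) were longer at 72 h. Fgf5 (1733 and 1345 bp), Dnmt3b (2272 and 2031 bp), Lin28a (1862 and 1150 bp), T (1635 and 1468 bp) and Fgf8 (642 and 537 bp) were shorter. Nanog (1800 bp at 0 h) was not listed at 72 h.

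**Figure D3:**
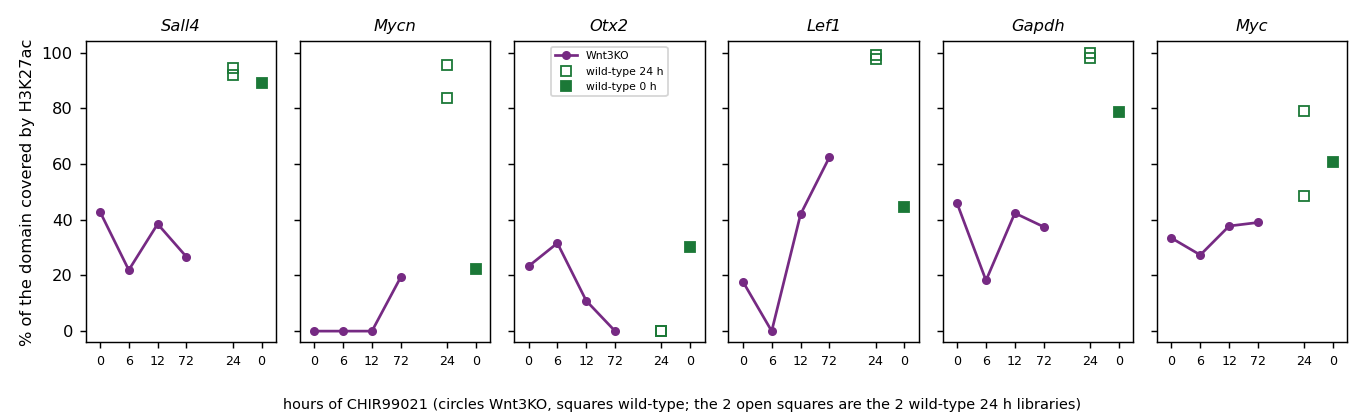
Percent of each of 6 gene domains covered by H3K27ac (vertical axes) in Wnt3KO EpiSCs at 0, 6, 12 and 72 h of CHIR99021 (circles) and in wild-type EpiSCs at 24 h (open squares, 2 libraries) and 0 h (filled square). Lef1 reaches 62.4% at 72 h in Wnt3KO cells, while Otx2 is at 0% there and in both wild-type 24 h libraries.

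Most domains carried H3K27ac, but over a minor part of their length. In Wnt3KO cells H3K27ac was listed at 202, 185, 208 and 191 of the 234 domains at 0, 6, 12 and 72 h, against 54.6%, 44.6%, 51.3% and 50.1% of all 0 h regions. It covered 34.4%, 22.6%, 30.0% and 34.3% of the bases of the domains, and 30.3%, 20.4%, 26.5% and 26.3% of those of narrow regions. In the 4743 regions between 1500 and 3000 bp with the same exclusions, it covered 41.6%, 29.1%, 36.7% and 38.6% of the bases. A long region has more room for an overlap by 1 bp, which the summit windows below avoid. The median domain at 0 h had 32.6% of its length covered (quartiles 16.7% and 53.1%), in 1 piece at 68 domains, 2 at 86 and 3 or more at 48. H3K27ac was listed at all 4 times over 154 domains (65.8%, Wilson interval 59.5% to 71.6%), against 24.2% of narrow regions and 32.9% of all 0 h regions. It was listed at no time over 10 domains (4.27%, interval 2.34% to 7.69%), against 38.3% of narrow regions and 33.2% of all 0 h regions.

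Between 72 h and 0 h, which share a folder, H3K27ac coverage of the domains in Wnt3KO cells was 34.3% and 34.4%, a difference of -0.15 points. The 2 wild-type 24 h libraries differed by an SD of 2.18 points, the nearest replicate error and larger than this difference. The value depended on the choices made: it was 3.64 points with H3K27ac lists cut to equal length and -2.34 points for domains of at least 2500 bp, both outside that SD, and 0.58 points with no exclusion of H3K27me3 or input regions. Narrow regions had 26.3% and 30.3%, a difference of -3.93 points. Domain by domain, coverage was higher at 72 h in 106 domains, lower in 109 and equal in 19, against 25.3%, 34.6% and 40.1% of all 0 h regions. H3K27ac was listed at 72 h and not at 0 h over 13 domains and at 0 h and not at 72 h over 24, against 5.57% and 10.1% of all 0 h regions. Between 12 h and 6 h, the other pair within a folder, coverage was 30.0% and 22.6% in the domains and 26.5% and 20.4% in narrow regions, with 1 library at each time and no test.

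In wild-type cells H3K27ac covered more of the domains at 24 h than at 0 h. It covered 74.8% and 71.7% of their bases in the 2 libraries at 24 h (73.2% ± 2.18, SD, n = 2), against 42.2% in the 1 library at 0 h. Coverage was higher in both 24 h libraries than at 0 h in 208 of 234 domains, against 72.6% of all 0 h regions, and lower in both in 8 domains, against 2.28%. The difference of 31.0 points was larger than the replicate SD, but narrow regions differed by 36.6 points, so the difference was not larger in the domains. The 24 h lists held 29056 and 27422 regions and came from one folder, against 14453 regions from another folder at 0 h, and with each list cut to the strongest regions up to the length of the shortest H3K27ac list the difference was 20.5 points. With 1 library at 0 h no test was run, and time and folder cannot be told apart.

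Among the domains, the greatest H3K27ac coverage at 0 h in Wnt3KO cells was found at chr4:108505380-108508408 (87.7%), chr11:60349724-60353284 (86.0%), chr13:58501864-58504995 (85.8%), chr15:59478874-59482868 (85.1%) and chr5:143579693-143584046 (83.4%). At 72 h these kept 77.4%, 92.6%, 78.5%, 63.9% and 84.0%. The 5 longest of the 10 domains without H3K27ac in Wnt3KO cells were chr8:86422499-86426170, chr11:68934405-68937750, chrX:58144614-58147951, chr8:24520939-24524238 and chr17:47276815-47280065. In both wild-type 24 h libraries H3K27ac was listed at 4 of them, with 42.2% and 46.4%, 53.6% and 27.4%, 25.4% and 18.3%, and 43.0% and 29.3% covered, and at the one on the X chromosome it was listed in none of the 7 H3K27ac lists. All 5 were accessible in wild-type EpiSCs, where ATAC-seq regions covered from 34.2% to 75.02% of them at 48 h and from 40.7% to 89.0% at 0 h.

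To compare regions of unequal length, the share of H3K4me3 summits with H3K27ac or accessible chromatin in a fixed window of 500 bp to each side was taken in every library. H3K27ac was listed in 74.8%, 65.4%, 75.2% and 75.6% of the summit windows of the domains in Wnt3KO cells at 0, 6, 12 and 72 h, against 49.5%, 37.1%, 44.6% and 43.7% of those of narrow regions and 54.3%, 43.1%, 50.1% and 50.3% of all 0 h regions. In wild-type cells the shares in the domains were 96.2% and 94.9% at 24 h and 74.8% at 0 h, against 82.4%, 81.2% and 48.1% in narrow regions and 82.6%, 81.2% and 51.1% over all 0 h regions. Regions between 1500 and 3000 bp had 81.0%, 67.7%, 75.25% and 78.1% in Wnt3KO cells at 0, 6, 12 and 72 h. In wild-type cells they had 96.9% and 96.0% at 24 h and 76.1% at 0 h. Their share lay above that of the domains in each library, so a high share was not particular to the domains. The mean difference between domains and narrow regions was 24.3 ± 7.61 points (SD over 7 libraries, range 13.7 to 32.0), with the domains higher in 7 of 7 libraries (exact two-sided sign permutation test over libraries, p = 0.0156, the smallest this test can give; adjusted p = 0.0156 over 2 marks). Against narrow regions of matched fold enrichment the difference was 9.09 ± 6.29 points (range 0.218 to 14.6) and the domains were again higher in 7 of 7 libraries (exact p = 0.0156, adjusted p = 0.0156). The difference was thus smaller against narrow regions from the middle of the domains' range of fold enrichment. The domains themselves were not restricted to that range, so height was matched only in part. The libraries of a mark measure the same places and share cells and folders, so the test says that the direction held in each library, not that libraries are independent samples of domains.

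**Figure D4:**
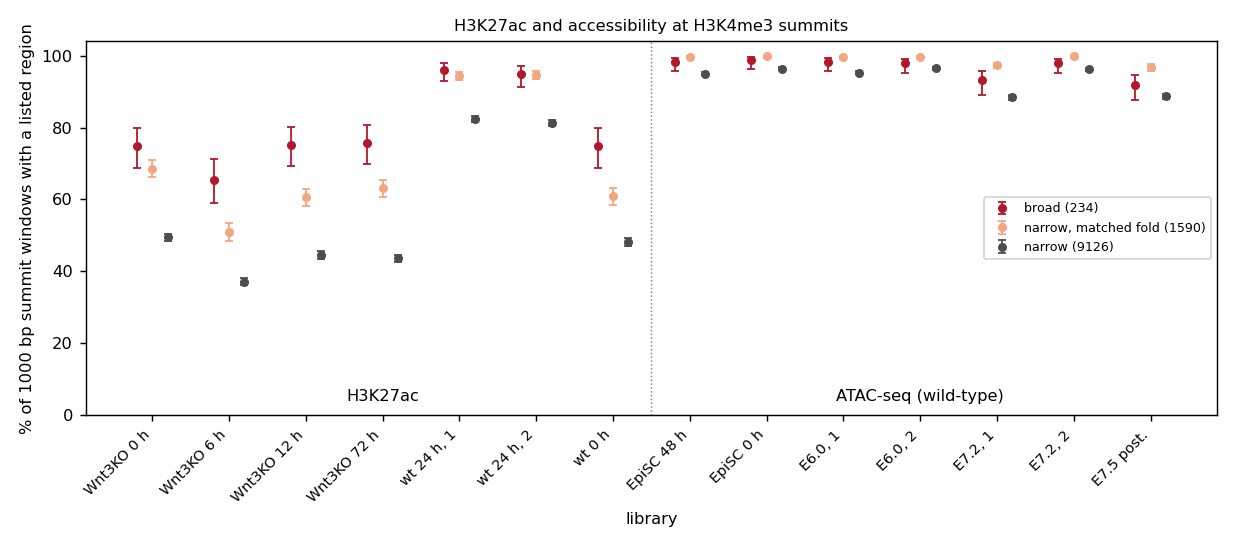
Percent of 1000 bp windows around H3K4me3 summits that hold a listed region (vertical axis) in each of 7 H3K27ac and 7 ATAC-seq libraries, for broad domains, narrow regions of matched fold enrichment and all narrow regions; bars are 95% Wilson intervals, which cover counting error only. Domains lie above narrow regions in all 14 libraries and below narrow regions of matched fold enrichment in the 7 ATAC-seq libraries.

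Accessible chromatin was found at nearly every domain. ATAC-seq regions were listed at all 234 domains in wild-type EpiSCs at 48 h and at 0 h, against 94.7% and 96.3% of all 0 h regions. In all 7 ATAC-seq lists together 230 domains (98.3%) were listed, against 81.5% of narrow regions and 85.5% of all 0 h regions. Summit windows were listed in 98.3% of domains at 48 h and 98.7% at 0 h, against 95.003% and 96.4% of narrow regions and 95.2% and 96.7% of all 0 h regions. The mean difference from narrow regions over the 7 libraries was 2.77 ± 1.16 points (SD, range 1.31 to 4.76), higher in 7 of 7 (exact two-sided sign permutation test, p = 0.0156; adjusted p = 0.0156). The direction depended on the comparison set: against narrow regions of matched fold enrichment the domains were lower in 7 of 7 libraries, by -2.41 ± 1.55 points (range -4.98 to -1.09, exact p = 0.0156, adjusted p = 0.0156). It also turned when a listed region had to share at least 50% of the smaller region, with -3.87 points. A higher accessibility of the domains as such is therefore not shown by these lists.

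By length, accessible regions covered somewhat less of the domains than of narrow regions, by -2.41 points on average over the 7 libraries and in 7 of 7. They covered 65.1% of the bases of the domains at 48 h and 66.8% at 0 h in EpiSCs, a difference of -1.66 points. This is smaller than the SD of 2.12 points between the E6.0 libraries, which came from different folders. The 48 h and 0 h lists of EpiSCs also came from different folders, so time and folder cannot be told apart in this pair. In narrow regions the values were 65.3% and 68.6%. Single domains moved both ways, with coverage higher at 48 h in 98 and lower in 132, against 33.9% and 56.7% of all 0 h regions. At 0 h 128 domains held a single accessible region, 73 held 2 and 33 held 3 or more.

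The most separate accessible regions, 4 at 0 h, were found in chr12:109238923-109244587, chr2:44963903-44968701, chr10:20878143-20881615 and chr7:85721577-85724692. Of the other domains among the 33 with at least 3, the longest was that on chromosome 17, and it is given with them. Accessible regions covered 53.9%, 39.0%, 44.1%, 48.9% and 80.5% of these 5 at 48 h, against 55.4%, 44.3%, 82.0%, 65.1% and 69.5% at 0 h. The domain on chromosome 10 differed most between the times, whose lists came from different folders. H3K27ac covered at most 9.21% of that domain in any of the 7 H3K27ac libraries.

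In embryos accessible regions covered 61.4% and 64.4% of the bases of the domains in the E6.0 libraries, 42.2% and 61.0% in the E7.2 libraries and 50.8% in the posterior part at E7.5. The E7.2 libraries averaged 51.6% ± 13.3 and the E6.0 libraries 62.9% ± 2.12 (SD, n = 2 each), a difference of -11.3 points (exact two-sided permutation test, p = 0.333, the smallest that 2 against 2 libraries can give). Narrow regions differed by -10.8 points. Without the first E7.2 library the difference was -1.88 points and without the second it was -20.7 points, so its size depended on the library. The first list held 33881 regions against 72433 in the second. With ATAC-seq lists cut to equal length the difference was -10.6 points. First and second libraries also came from different folders, and within the folders the differences were -19.2 and -3.37 points.

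Both marks were concentrated towards the middle of the domains. At 0 h H3K27ac covered 15.9% of the outermost of the 5 steps from edge to centre, then 33.0%, 39.0%, 41.4% and 42.8% at the centre. Accessible regions at 0 h covered 44.0%, 63.7%, 73.2%, 75.2% and 77.8%. In narrow regions H3K27ac covered 6.93%, 19.5%, 33.4%, 43.2% and 48.2%, and accessible regions 44.5%, 59.4%, 72.2%, 81.1% and 85.9%. The steps are shares of each region's own length, so a step spans more bp in a domain than in a narrow region. With that limit, in these 0 h lists coverage of the domains was higher than that of narrow regions in step 2 and lower at the centre. For H3K27ac the order at the centre changed with the library: it was 46.2% in the domains and 43.1% in narrow regions at 72 h in Wnt3KO cells, and 47.9% and 44.0% at 0 h in wild-type cells. Accessible regions at 48 h covered 74.4% of the centre in the domains and 82.6% in narrow regions. Longer domains held more H3K27ac in base pairs at about the same share: from the shortest to the longest of 3 length groups (78 domains in each, 3010 to 3240, 3250 to 3609 and 3621 to 7049 bp), H3K27ac at 0 h covered 33.3%, 34.8% and 34.9% of the bases, in 1.44, 1.65 and 1.97 pieces on average. Accessible regions covered 70.7%, 64.6% and 65.6% of the bases of the same groups at 0 h.

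**Figure D5:**
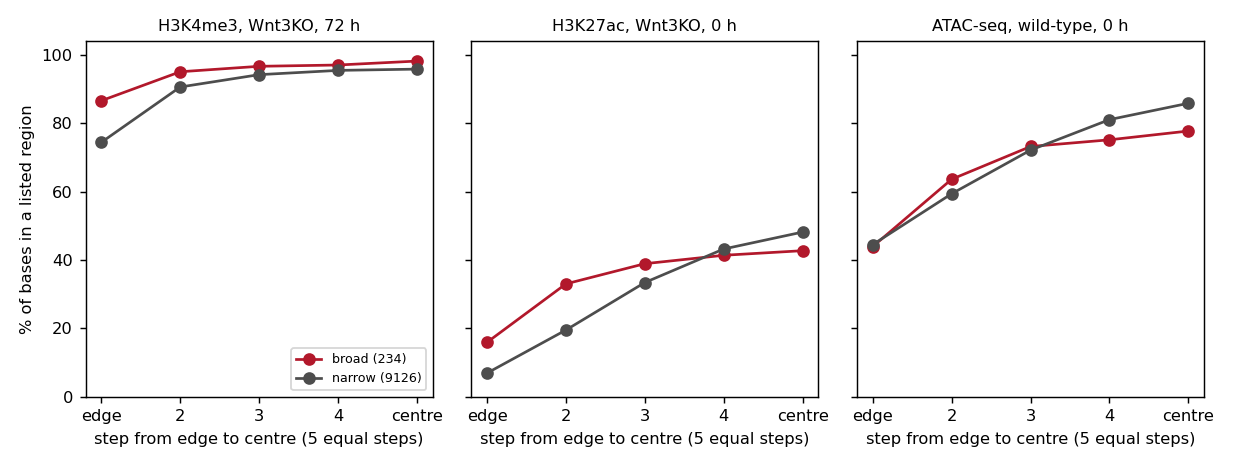
Percent of bases in a listed region (vertical axes) in 5 equal steps from the edge to the centre of a region (horizontal axes), for 234 broad domains and 9126 narrow regions, shown for H3K4me3 at 72 h and H3K27ac at 0 h in Wnt3KO EpiSCs and ATAC-seq at 0 h in wild-type EpiSCs. All 3 curves of the domains rise inwards, and in these lists those of H3K27ac and ATAC-seq end below the narrow regions at the centre. A step spans more bp in a domain than in a narrow region.

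The 48 broad regions set aside for H3K27me3 alone were unlike the domains in H3K27ac. Averaged over the 7 H3K27ac libraries, H3K27ac covered 44.3% of the bases of the domains and 15.7% of those of the broad regions with H3K27me3, a difference of 28.5 ± 8.74 points (SD over libraries, range 16.7 to 38.4), with the domains higher in 7 of 7 libraries (exact two-sided sign permutation test, p = 0.0156; adjusted p = 0.0312 over 2 marks). Accessible regions covered 58.8% of the domains and 63.5% of the broad regions with H3K27me3, a difference of -4.67 ± 4.31 points (range -10.5 to 1.02), with the domains higher in 1 of 7 libraries (exact p = 0.0312, adjusted p = 0.0312). The 2 kinds of broad region thus differed far more in H3K27ac than in accessibility. They were split by listed H3K27me3, a mark of the same lysine as H3K27ac, so the difference in H3K27ac is bound up with the choice. The libraries of a mark measure the same places, so these tests speak only of how steady the direction was over libraries. In the broad regions with H3K27me3, H3K27ac coverage in wild-type cells was 36.4% and 36.2% at 24 h, against 4.64% at 0 h.

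Polycomb marks were listed at a minor part of the domains. H3K27me3, absent at 0 h by choice, was listed at 0 domains after 5 h of Wnt3a and at 4, 5 and 11 domains after 6, 12 and 72 h of CHIR99021, against 2.16%, 3.83%, 4.84% and 6.83% of all 0 h regions. The 11 domains at 72 h were 4.70% (interval 2.64% to 8.22%) of the 234, against 1.67% of narrow regions and 1.73% of regions between 1500 and 3000 bp with the same exclusions. Ring1b, the ubiquitin ligase of Polycomb repressive complex 1, was listed at 3 and 15 domains (1.28% and 6.41%) in the 2 libraries at 0 h. It was listed at 25 (10.7%) after Wnt3a and at 5 (2.14%) after 72 h of CHIR99021. The shares were 4.66%, 5.16%, 8.27% and 1.81% of all 0 h regions, and 0.756%, 1.26%, 2.11% and 0.909% of narrow regions. For Ring1b the domains thus lay above narrow regions in each list, and below all 0 h regions only in the first 0 h library. All 0 h regions include those with H3K27me3, which the domains and narrow regions exclude, so these sets are unlike. In regions between 1500 and 3000 bp with the same exclusions, Ring1b was listed at 0.253% and 1.22% in the 0 h libraries. There the shares were 3.75% after Wnt3a and 0.907% after 72 h of CHIR99021. A long region has more room for an overlap by 1 bp, and these differences were not tested. The 0 h libraries shared 2 of the 16 domains at which either listed Ring1b, so the replicates listed it largely at different places. The list after Wnt3a shares a folder with the first 0 h library (25 against 3 domains), and the 72 h list shares one with the second (5 against 15). At the Otx2 domain Ring1b covered 0% in the first and 40.7% in the second library at 0 h, 11.1% after Wnt3a and 54.4% after 72 h of CHIR99021. Its 2 libraries at 0 h enclose the value after Wnt3a, while that at 72 h lies above both. H3K27me3 covered 6.41% of the Otx2 domain at 6 h of CHIR99021 and 0% at 12 and 72 h.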

How the data were processed

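Lists of enriched regions from ChIP-seq and ATAC-seq of mouse EpiSCs and embryos were used as deposited, 1 list per library in mm9 coordinates. Per the submitters' processing notes, MACS2 2.1.0, Bowtie 1.1.0 and SAMtools 0.1.19 served ChIP-seq. MACS2, SAMtools 0.1.19, Bowtie2 2.1.0 and cutadapt 1.8.1 served ATAC-seq, with no role or order stated. The control used in peak calling is not given, and neither are the tools for 2 wild-type H3K4me3 libraries and for wild-type H3K27ac after 24 h. The deposited fold enrichment is a ratio of signal over background at the summit. Each region also has a −log10 p and a −log10 q, deposited as the authors' caller wrote them. ChIP-seq reads were extended to 300 bp against a local background of 100 kb, as read from region names in the deposited lists. Labels do not say whether replicates were separate cultures, so errors may be technical. Depth is unknown, since the lists hold no counts, and a region that is not listed may have been missed at low depth; more and longer regions are usually listed at greater depth.

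Regions were intersected with Python 3.11.15, numpy 2.4.6 and pandas 2.3.3, an overlap being at least 1 bp. The covered percent is the share of the bases of a set of regions that lies in regions of another list. Shares carry 95% Wilson intervals. Tests were exact permutations over libraries, run with numpy, with Benjamini-Hochberg adjustment over 2 marks; they were tested on simulated data. Differences with 1 library on a side were not tested and stand beside the SD of the nearest replicate pair. Folders in the region names served as batches. Replicate numbers of embryo libraries mark different folders and pair no embryos. The lists hold no transcript levels, so the Wnt3 deletion was not checked.

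The domains, the gene set and the comparisons were chosen with earlier results of these data known. The regions named were the 5 longest, those nearest the length limit, the 5 with the most H3K27ac at 0 h, the 5 longest without H3K27ac in Wnt3KO cells, the 5 with the most separate accessible regions and those at placed genes; regions on chromosome 18 were counted and not named. Alternatives were a stricter overlap, a −log10 q of at least 5, lists of equal length, other length limits (2500 and 4000 bp), other exclusions, merging within 1 kb, other windows, narrow regions of matched fold enrichment (added after seeing the data) and leaving out replicates. A pair of wild-type H3K4me3 libraries whose labels contradict each other were put in no group.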

Additional observations from a re-analysis of the deposited data

Results flagged for a closer look

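H3K27ac coverage of the 234 domains lay on opposite sides of the 0 h value after CHIR99021 in Wnt3KO and wild-type EpiSCs. In Wnt3KO cells the difference from 0 h was -11.9 points at 6 h, -4.45 points at 12 h and -0.15 points at 72 h. In wild-type cells it was 32.6 points in the first and 29.5 points in the second library at 24 h. The same held over all 0 h regions. There H3K27ac covered 32.5%, 22.5%, 28.7% and 29.7% of the bases at 0, 6, 12 and 72 h in Wnt3KO cells. In wild-type cells it covered 71.0% and 68.6% of them at 24 h, against 36.3% at 0 h, so the pattern was not particular to the domains. All libraries with CHIR99021 lay below their 0 h library in Wnt3KO cells and above it in wild-type cells, and the difference between the cell lines was not tested. The times differ (6, 12 and 72 h against 24 h), and only the 72 h and 0 h lists of Wnt3KO cells share a folder, so that time and folder cannot be told apart in the other values. The value at 72 h is smaller than the replicate SD of 2.18 points, and its sign depended on the choices made: it was 3.64 points with H3K27ac lists cut to equal length, 0.58 points with no exclusion of H3K27me3 or input regions, and 0.31 and 0.089 points with the exclusion resting on the first or on the second H3K27me3 library alone. With lists of equal length the wild-type difference was 20.5 points, and the 72 h value in Wnt3KO cells had the same sign.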

How the results depend on the processing

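In all, 8 results were recomputed in 91 combinations with an alternative, and 77 were counted as unchanged. These kept their direction and, except for E7.2 minus E6.0, their size or side of the threshold. For E7.2 minus E6.0 only the direction was judged, so values from -20.7 to -1.88 points count among the 77. A further 3 changed sign by less than the replicate SD: the Wnt3KO H3K27ac difference (72 h minus 0 h), -0.15 points, was 0.58 with no exclusion and 0.089 to 0.31 without one H3K27me3 library. The number of domains was 654 with a limit of 2500 bp, 38 with 4000 bp and 462 after merging within 1 kb. With 4000 bp, 100% of the domains were at least 50% covered by H3K4me3 at 72 h and the wild-type H3K27ac difference was 28.8 points. With lists of equal length the wild-type difference was 20.5 points and the Wnt3KO difference was 3.64 points, and the Wnt3KO difference was -2.34 points with 2500 bp. The difference in ATAC-seq summit windows, 2.77 points, turned to -3.87 when 50% of the smaller region had to be shared, -1.70 with 4000 bp (exact permutation p = 0.141) and -2.41 against narrow regions of matched fold enrichment; the cause was not tested. Leaving out a replicate gave 29.5 to 32.6 points for wild-type H3K27ac, 26.1 for H3K27ac windows, 2.44 to 3.02 for ATAC-seq windows and -20.7 to -1.88 for E7.2 minus E6.0. With the replicate number as a block, E7.2 minus E6.0 stayed at -11.3 points (exact permutation p = 0.5, the smallest it can give). Unknown depth limits every statement on regions that are not listed.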

Other observations

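The 2 wild-type H3K4me3 libraries left out of all groups have titles and treatment labels that contradict each other, so that neither library can be called 0 h or 72 h of CHIR99021. H3K4me3 in them covered 96.7% and 95.8% of the bases of the 234 domains and lay in a single region over 228 and 207 of them. A region of at least 3000 bp lay over 215 and 197 domains. Their lists held 623 and 812 regions of at least 3000 bp, more than any of the Wnt3KO lists. Of the 285 broad regions at 0 h in Wnt3KO cells, 254 and 236 overlapped a region of at least 3000 bp in these libraries.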
